A study of Mus musculus with 2 samples.

Results

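The MHC class II presentation pathway was followed through 7 genes in organoids grown from mouse alveolar type 2 (AT2) cells. The members were Cd74, H2-Aa, H2-Ab1, H2-Eb1, H2-DMa, H2-DMb1 and Ciita, taken by symbol as 7 of the 27998 genes counted, and each was read in AT2, transitional, AT1 and stromal cells of both libraries. AT2 cells came from C57BL/6 mice carrying Sftpc-CreERT2 and R26RTomato, in which tamoxifen marks cells that express surfactant protein C. They were grown with lung stromal cells for 2 weeks by the series' own description, while a figure legend of the study names a later day of isolation. One library of droplet-based 3′ single-cell RNA-seq was made from organoids given PBS (control) and 1 from organoids given IL-1β, an inflammatory cytokine. The alleles, strain and stromal cells were shared by both conditions, and both held whole organoids, so stromal cells are part of each library. The number of mice behind a library is not given in the sources used here. Each condition has 1 library, so the treatment and the preparation of a library cannot be told apart, no p-value was computed, and every interval below covers counting error only.

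MHC class II molecules are cell-surface dimers of an alpha and a beta chain that show peptides from endosomes to CD4+ T cells. The chains assemble in the endoplasmic reticulum with the invariant chain, encoded by Cd74, which fills the peptide groove and directs the complex to endosomes, where proteases cut it down to a short fragment. The H2-DM dimer then exchanges that fragment for peptides, H2-O restrains H2-DM, and the coactivator CIITA switches on the genes of the pathway. Professional antigen-presenting cells are the usual site of this pathway, but AT2 cells are known to carry it at rest. C57BL/6 mice make the I-A dimer (H2-Aa with H2-Ab1), whereas H2-Eb1 encodes a beta chain whose alpha partner is not made in this strain.

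The unit throughout is the unique molecular identifier (UMI), 1 per captured transcript molecule, summed over the cells of a class and given per 1000000 UMIs of that class (CPM). Counts from 3′ ends are not divided by gene length. The control library held 2101 barcodes and 33965848 UMIs and the IL-1β library 3066 barcodes and 41220175 UMIs, with medians of 14613 and 11496.5 UMIs per barcode and 11 barcodes in common. Cells were clustered without the members and the other listed genes, and clusters were named from markers. This gave 924 control and 1509 IL-1β AT2-like cells, 25 and 102 cells like damage-associated transient progenitors (DATP-like, the transitional state between AT2 and AT1 cells), 261 and 372 AT1-like cells, and 798 and 481 stromal-like cells. Of 13 epithelial clusters, 12 were made up to 95% or more by a single library. AT2-like cells were mainly an 830-cell cluster led by Bex2, Bex4 and Acoxl and 84 cycling cells in the control, and 3 clusters of 591, 482 and 432 cells with IL-1β. The study assigned most epithelial cells of IL-1β organoids to a primed AT2 state, with low Etv5, Abca3 and Cebpa. Primed and cycling AT2 cells were not set apart from other AT2-like cells here. The AT2-like cells of the 2 libraries may therefore differ in state as well as in treatment. AT1-like cells were a cluster of 260 cells led by Spock2 and Pmp22 in the control and 1 of 367 cells led by AW112010, Serpinb9 and Itgb6 with IL-1β, whereas DATP-like cells formed 1 shared cluster with Sprr1a, F3 and Ndrg1 among its leading genes. The study names AW112010 and Cldn4, both among the top 10 genes of the IL-1β AT1-like cluster, as DATP markers. It reports that AT1-like cells of IL-1β organoids did not raise mature AT1 markers. Clusters were named from the markers, so marker sums describe the classes and do not check their names. Control first, the 9 AT2 markers summed to 136503 and 113660 CPM in AT2-like cells. The 12 AT1 markers summed to 21885.5 and 13698 CPM in AT1-like cells and the 9 DATP markers to 9643 and 10960 CPM in DATP-like cells. The AT2 markers also summed to 43808 and 31457 CPM in AT1-like cells and to 41671 and 32461 CPM in DATP-like cells. The remaining clusters stayed unnamed, the largest with 5 control and 550 IL-1β cells and led by Slc26a4, Cd14, Clu and Sftpd, and 9 IL-1β cells were airway-like.

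Most members sit close together in the genome. In GENCODE M21 (GRCm38), 5 of the 7 lie on chromosome 17 between the start of H2-DMa at 34119541 and the end of H2-Eb1 at 34316674, and H2-DMb1 (34153072 to 34160230) follows its near copy H2-DMb2 (34143307 to 34151555). Class II promoters are known for a shared pair of boxes, X (bound by the RFX complex) and Y (bound by NF-Y), on which CIITA is recruited. RefSeq promoter sequences of GRCm38.p6, which run from 250 bases before to 50 after a start site, were at hand for 4 members: H2-Aa, H2-Eb1, H2-DMb1 and H2-DMa. A pair was searched on both strands as GNAAC followed, 32 to 34 bases after its first base, by ATTGG, a pattern written after the sequences had been seen. It was found for H2-Aa, H2-Eb1 and H2-DMb1 and also for H2-Oa, but in neither window of H2-DMa and not for H2-DMb2, and 0.533% of all 32851 promoters held it, whereas ATTGG alone stood in 37.4%. The stretches of the 2 members whose pair lies wholly before the annotated gene are shown because their genes were counted at high levels, with X and Y in capitals: H2-Aa at chr17:34287855-34287916 on the minus strand, with X 81 bases before the start, and H2-Eb1 at chr17:34305764-34305824 on the plus strand, with X 91 bases before it.
H2-Aa: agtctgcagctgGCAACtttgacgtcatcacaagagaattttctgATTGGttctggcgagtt
H2-Eb1: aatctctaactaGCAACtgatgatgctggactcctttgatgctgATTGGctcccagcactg
The spacing from X to Y was 33 bases in H2-Aa and 32 in H2-Eb1. A match of these letters is a description of the sequence and not of factor binding.

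The pathway was expressed at high level in the epithelium of both libraries and was higher in the IL-1β library in each epithelial class. Together the 7 members took 0.832% of all UMIs of control AT2-like cells and 1.18% of those of IL-1β AT2-like cells. In AT1-like cells the shares were 0.961% and 1.69%, in DATP-like cells 0.399% and 0.547%, and in stromal-like cells 0.0456% and 0.0838%. The order of the classes was the same in both libraries, with AT1-like cells first and stromal-like cells last.

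**Figure D1:**
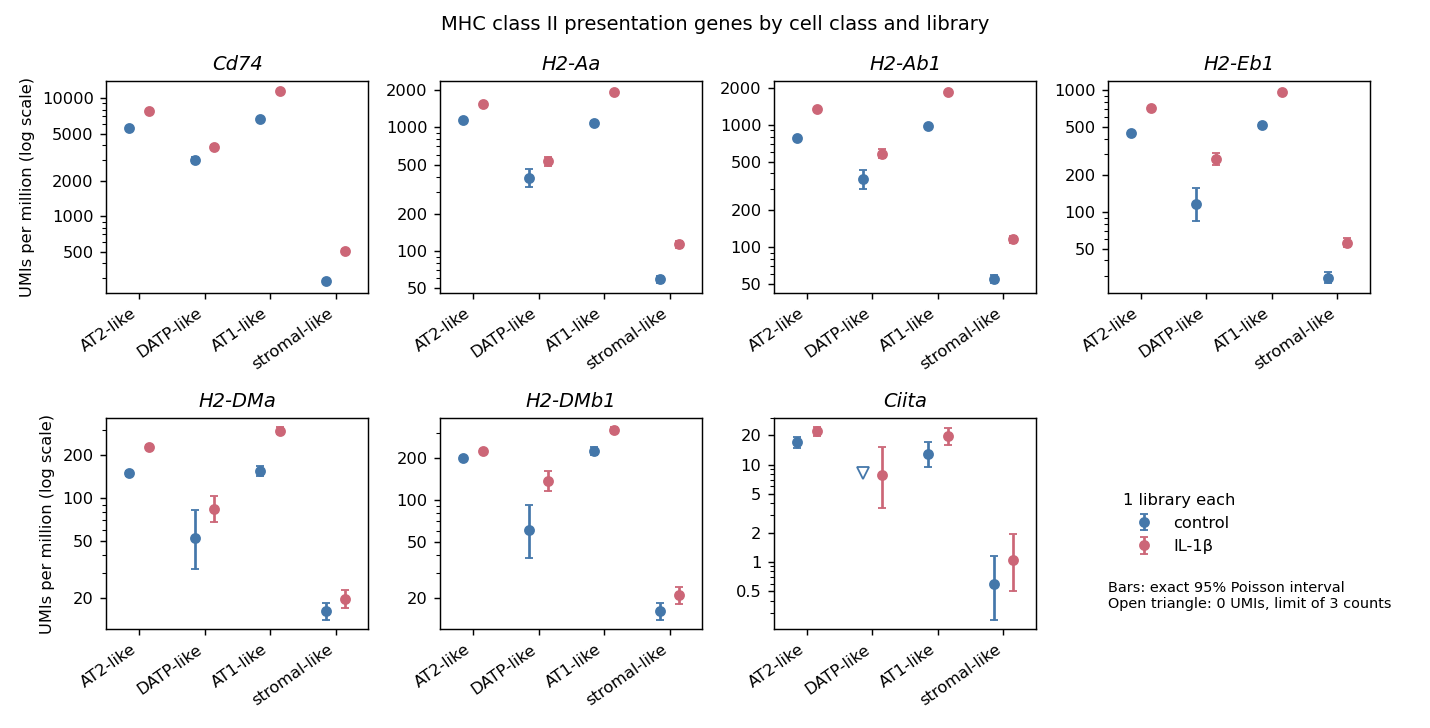
CPM of each member (log axis) in 4 cell classes of the control (blue) and IL-1β (red) libraries, 1 library each, with exact 95% Poisson intervals where they exceed the symbol; the open triangle marks 0 UMIs at the level that 3 counts would give. All 7 members were lowest in stromal-like cells in the IL-1β library, and 6 of 7 in the control, where Ciita was not detected in DATP-like cells. Every point of the IL-1β library lies above the control point of its class except Ciita in DATP-like cells, where the control count was 0.

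Cd74 (ENSMUSG00000024610, chromosome 18, 60803848 to 60812652) was the most abundant member in every class. AT2-like cells held 5589 CPM of it in the control library (exact Poisson 95% interval 5550 to 5628) and 7715 CPM in the IL-1β library (7675 to 7755), a ratio of 1.38 (1.37 to 1.39). This placed it 16th and 12th among all genes of AT2-like cells. AT1-like cells held more, with 6647 CPM in the control (6565 to 6730) and 11465 CPM with IL-1β (11371 to 11559), a ratio of 1.72 (1.70 to 1.75), and Cd74 ranked 8th and 5th there. DATP-like cells held less than AT2-like cells, with 3010 CPM (2833 to 3194) and 3853 CPM (3740 to 3969), a ratio of 1.28 (1.198 to 1.37). Stromal-like cells gave 281 and 512 CPM.

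The chains of the class II dimers came next in abundance. H2-Aa, the alpha chain of I-A, gave 1142 CPM in control and 1558 CPM in IL-1β AT2-like cells, a ratio of 1.36 (1.34 to 1.39). Its partner H2-Ab1 gave 776 and 1339 CPM, a ratio of 1.73 (1.69 to 1.77), so that the 2 chains of one dimer did not move by the same amount. H2-Aa UMIs per H2-Ab1 UMI were 1.47 (1.44 to 1.51) in the control and 1.16 (1.14 to 1.18) with IL-1β. In AT1-like cells this quotient was 1.11 (1.06 to 1.16) and 1.04 (1.01 to 1.07).

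H2-Eb1 gave 447 CPM in control and 716 CPM in IL-1β AT2-like cells, a ratio of 1.60 (1.55 to 1.65). In AT1-like cells the ratios of the 3 chains lay close together: H2-Aa went from 1085 to 1941 CPM (ratio 1.79, 1.73 to 1.86), H2-Ab1 from 975 to 1870 CPM (1.92, 1.85 to 1.99) and H2-Eb1 from 517 to 966 CPM (1.87, 1.77 to 1.97). DATP-like cells held these chains below AT2-like and AT1-like cells in both libraries. H2-Aa was at 393 and 531 CPM there, H2-Ab1 at 360 and 583 CPM and H2-Eb1 at 116 and 272 CPM, the last a ratio of 2.35 (1.70 to 3.32) on 42 control UMIs.

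H2-DMa and H2-DMb1 encode the alpha and a beta chain of the H2-DM peptide editor. H2-DMa gave 149 CPM in control and 228 CPM in IL-1β AT2-like cells (ratio 1.53, 1.45 to 1.61), and 154 and 296 CPM in AT1-like cells (1.92, 1.75 to 2.12). H2-DMb1 was the member with the ratio nearest 1 in both classes, with 200 and 223 CPM in AT2-like cells (1.11, 1.06 to 1.17) and 223 and 314 CPM in AT1-like cells (1.41, 1.30 to 1.53). The quotient of H2-DMb1 to H2-DMa UMIs in AT2-like cells was 1.34 (1.27 to 1.42) in the control and 0.979 (0.937 to 1.02) with IL-1β. In DATP-like cells H2-DMa was at 52.6 and 84.4 CPM, with an interval of the ratio that spans 1 (1.61, 0.974 to 2.78), and H2-DMb1 at 60.9 and 137 CPM (2.25, 1.44 to 3.70).

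Ciita (ENSMUSG00000022504, chromosome 16, 10480059 to 10528418), the coactivator of the other members, was the least abundant. It gave 17.1 CPM in control AT2-like cells (14.96 to 19.4, on 237 UMIs) and 21.9 CPM in IL-1β cells (19.8 to 24.2, on 401 UMIs), a ratio of 1.28 (1.09 to 1.51). AT1-like cells gave 12.9 and 19.7 CPM on 49 and 98 UMIs, a ratio of 1.53 (1.07 to 2.20). In DATP-like cells there was no UMI in the control, which allows up to 8.30 CPM when 0 is taken to allow 3 counts, and 9 UMIs with IL-1β (7.91 CPM). A change of Ciita in DATP-like cells was not detectable at this depth.

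**Figure D2:**
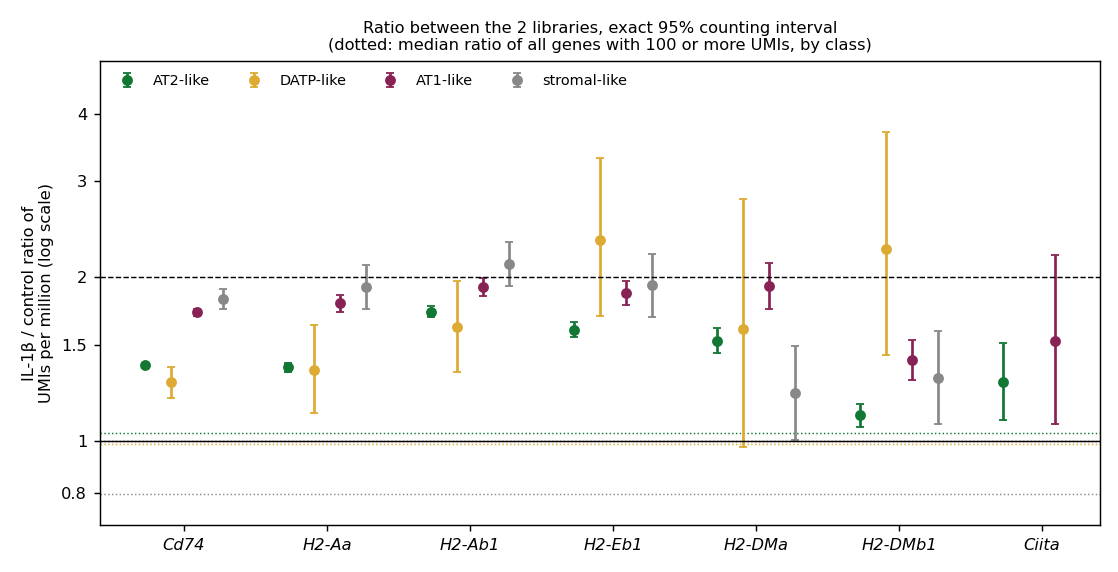
Ratio of IL-1β to control CPM (log axis) for each member with at least 100 UMIs in a class, with exact 95% counting intervals; the dashed line marks a ratio of 2 and dotted lines the median ratio of all genes in each class. All 26 ratios lie above 1, those of AT2-like cells (green) between 1.11 and 1.73 and those of AT1-like cells (purple) between 1.41 and 1.92.

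Read against all genes, the members were higher together but by less than 2-fold in the large epithelial classes. With a call at a ratio of 2 and at least 100 UMIs, 0 of 7 members were called in AT2-like cells, where 5.78% of 10106 genes were, and 0 of 7 in AT1-like cells, where 3.81% of 7856 genes were. The interval of the ratio lay above 1 for 7 of 7 members in AT2-like cells and 7 of 7 in AT1-like cells, against 32.3% and 21.1% of all genes. Such intervals are narrower for genes with more UMIs, and the shares over all genes were not matched to the members by abundance. In DATP-like cells 2 of the 6 members with enough UMIs passed the ratio (8.40% of 2297 genes) and 5 of 6 had an interval above 1 (18.6%), with Ciita below the minimum of counts. In stromal-like cells 1 of 6, H2-Ab1, passed the ratio (3.61% of 10075 genes) and 6 of 6 had an interval above 1 (12.2%). The median log2 ratio of the members was 0.47, 0.69, 0.84 and 0.90 in AT2-like, DATP-like, AT1-like and stromal-like cells, beside 0.05, -0.02, 0.00 and -0.32 for all genes tested. With libraries scaled by the median of ratios over genes, 4 of 6 members and 5.40% of all genes passed the ratio in stromal-like cells.

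In AT1-like cells H2-Aa, H2-Ab1, H2-Eb1 and H2-DMa lay just under the ratio of 2, and the count depended on which cells were taken: 4 of 7 passed once the 5% of cells with the highest doublet scores were removed (4.65% of all genes), and 2 of 7 when each library was clustered on its own (3.99%). The ratio in DATP-like cells rested on 25 control cells and on the clustering. When each library was clustered on its own, 89 control and 192 IL-1β cells were DATP-like, 0 of 6 members passed the ratio (7.97% of all genes), and the log2 ratio of H2-Aa turned from 0.43 to -0.08.

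Levels in AT1-like and AT2-like cells of the same library, as named here, were close in the control and further apart with IL-1β. Control AT1-like cells held 1.19 times the Cd74 of control AT2-like cells (1.17 to 1.21), 1.26 times the H2-Ab1 (1.21 to 1.30) and 1.16 times the H2-Eb1 (1.10 to 1.22). H2-Aa was slightly lower in them (0.9496, 0.917 to 0.983), and the intervals of H2-DMa (1.03, 0.942 to 1.13) and Ciita (0.754, 0.543 to 1.03) included 1. In the IL-1β library the AT1-like level was 1.49 times the AT2-like level for Cd74 (1.47 to 1.501), between 1.25 and 1.41 times for the chains of the dimers and of H2-DM, and not distinguishable for Ciita (0.898, 0.713 to 1.12). The unnamed IL-1β cluster led by Slc26a4 and Cd14 is outside these AT2-like levels, though its 9 AT2 markers summed to 84733 CPM. It held the 7 members at 125% to 136% of the AT2-like level, and the contrast was not recomputed with it joined. DATP-like cells held between 34.1% and 61.6% of the AT2-like level of each member in the IL-1β library. In the control this was between 26.0% and 53.9% for the 6 members with a UMI. These contrasts between classes were not recomputed with other cells or clusterings.

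**Figure D3:**
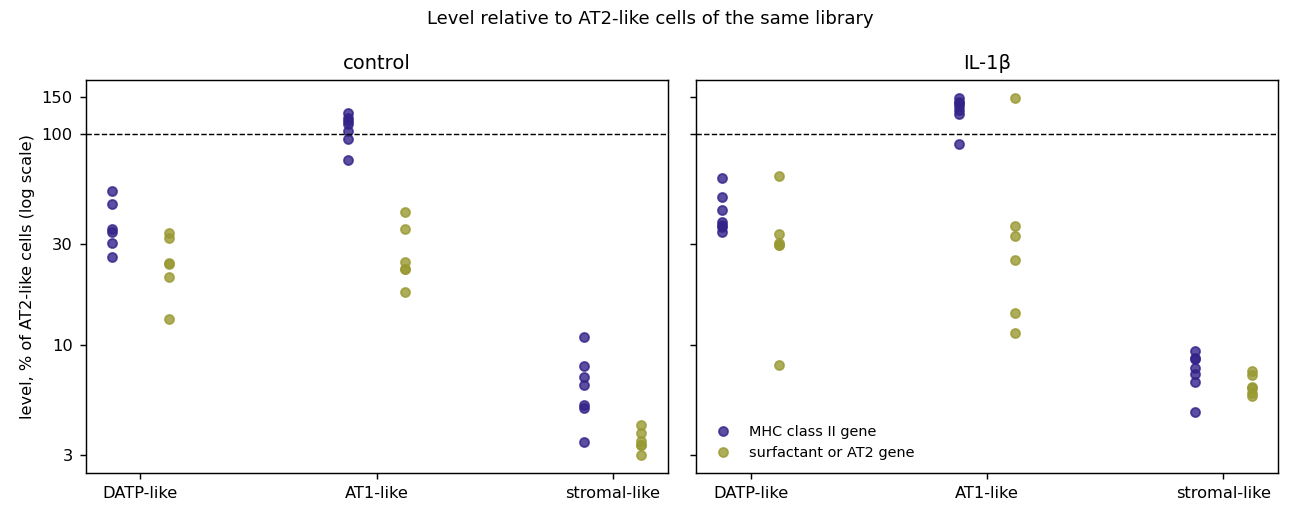
Level of each member (dark blue) and of the AT2 genes Sftpc, Sftpb, Sftpa1, Sftpd, Slc34a2 and Lamp3 (olive) as a percentage of the level in AT2-like cells of the same library (log axis), members at 0 left out. In control AT1-like cells the members sit at 75.4% to 126% and the AT2 genes at 17.7% to 42.7%. In stromal-like cells both groups lie at 10.8% or less in both libraries. The stromal medians of members and AT2 genes are 6.44% and 3.43% in the control and 7.77% and 6.27% with IL-1β.

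The AT2 genes measured alongside differed from the members in how they set AT1-like cells apart from AT2-like cells. In DATP-like cells the 2 ranges overlapped. There the AT2 genes were at 13.3% to 33.8% of the AT2-like level in the control and at 8.04% to 63.1% with IL-1β. The members were at 26.0% to 53.9%, for the 6 with a UMI, and at 34.1% to 61.6%. In control AT1-like cells Sftpc, Sftpb, Sftpa1, Sftpd, Slc34a2 and Lamp3 were at 17.7% to 42.7% of their AT2-like levels, and the members at 75.4% to 126%. In IL-1β AT1-like cells 5 of the 6 AT2 genes were at 11.4% to 36.5%, with Sftpd at 148%, and the members at 89.8% to 149%. In stromal-like cells, a type that should lack them, the AT2 genes were at 2.998% to 4.15% of the AT2-like level in the control and at 5.69% to 7.52% in the IL-1β library, and the members at 3.45% to 10.8% and at 4.80% to 9.34%. The stromal CPM of the AT2 genes was also higher in the IL-1β library, by unequal amounts, with Sftpc at 4082 and 4639 CPM, Sftpb at 448 and 554 CPM and Sftpd at 82.3 and 310 CPM. Over stromal-like cells, Spearman's rho of Cd74 per cell was 0.23 and 0.66 with Sftpc, and 0.12 and 0.31 with H2-Aa, control first. The part of free RNA or of doublets in the stromal values was not tested.

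Members differed in the share of AT2-like cells in which they were found. With each cell thinned to 4000 UMIs, a Cd74 UMI was found in 100% of 924 control cells (exact Clopper-Pearson 95% interval 99.6% to 100%) and in 100% of 1509 IL-1β cells. H2-Aa was found in 95.6% and 96.8% of AT2-like cells, H2-Ab1 in 87.4% (85.1% to 89.5%) and 95.1% (93.9% to 96.1%) and H2-Eb1 in 76.6% (73.8% to 79.3%) and 89.2% (87.5% to 90.7%). H2-DMa was found in 43.9% of cells (40.7% to 47.2%) and 57.4% (54.8% to 59.9%), and the intervals overlapped for H2-DMb1 (56.3% and 59.4%) and Ciita (7.68% and 8.75%). In stromal-like cells, with unthinned medians of 15646.5 and 14705 UMIs, a Cd74 UMI was found at the same depth in 50.1% and 75.9%, an H2-Aa UMI in 16.8% and 37.4% and a Ciita UMI in 0.376% and 0.832%. Without thinning, where the median AT2-like cell held 14242.5 UMIs in the control and 11586 with IL-1β, Ciita was found in 22.7% and 21.8% of AT2-like cells and H2-DMb1 in 88.3% and 87.0%, shares that lie in the opposite order to their CPM and give no order.

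**Figure D4:**
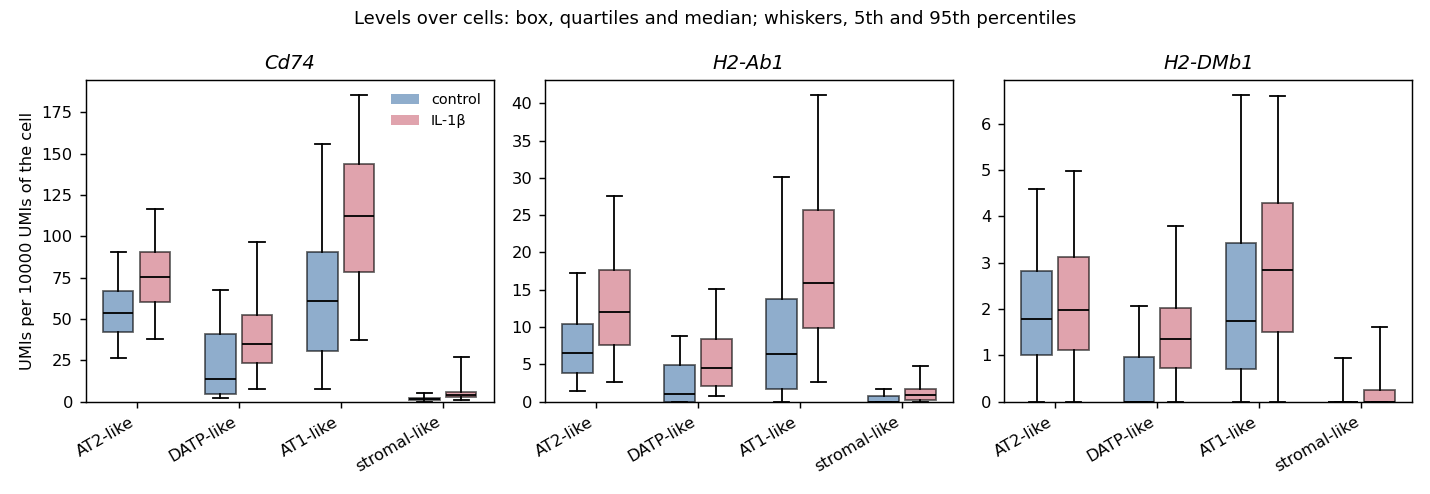
UMIs of Cd74, H2-Ab1 and H2-DMb1 per 10000 UMIs of each cell, by class and library; boxes give quartiles and median over cells, whiskers the 5th and 95th percentiles, and cells are not replicates. The Cd74 box of AT2-like cells moves from a median of 53.5 to 75.3 and that of AT1-like cells from 60.6 to 112, whereas the H2-DMb1 boxes of AT2-like cells nearly coincide.

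The levels spread over cells more widely in AT1-like than in AT2-like cells. Cd74 per 10000 UMIs of a cell had a median of 53.5 in control AT2-like cells, with 5th and 95th percentiles of 26.6 and 90.3, and of 75.3 in IL-1β AT2-like cells (37.7 and 117). The control median was exceeded by 83.1% of IL-1β AT2-like cells. AT1-like cells had a median of 60.6 in the control with percentiles of 7.46 and 156, and of 112 with IL-1β (37.3 and 186), so that the low end of control AT1-like cells lay below that of AT2-like cells. In DATP-like cells the medians were 13.6 and 34.6. H2-Aa was at 0 in 10.7% of control AT1-like cells and in 0.538% of IL-1β AT1-like cells, and in 0.541% and 1.19% of AT2-like cells.

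Cells rich in Cd74 were rich in the other chains. Over the AT2-like cells of 1 library, Spearman's rho of the level per cell with that of Cd74 was 0.64 for H2-Aa, 0.66 for H2-Ab1 and 0.54 for H2-Eb1 in the control (924 cells) and 0.65, 0.68 and 0.54 with IL-1β (1509 cells). It was 0.86, 0.87 and 0.78 in the 261 control AT1-like cells. The rho of Ciita with Cd74 lay between 0.09 and 0.16 in AT2-like and AT1-like cells, where most cells had no Ciita UMI. These values describe cells that share a library and a total count, and the surfactant gene Sftpc also reached 0.52 with Cd74 in control AT2-like cells and 0.15 in IL-1β AT2-like cells.

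Cd74 and Ciita were also read in the large AT2-like clusters of the IL-1β library. Cd74 was at 7069, 7634 and 8613 CPM in the 3 large clusters (591, 482 and 432 cells), and Ciita at 22.0, 21.9 and 21.9 CPM. Ciita had only 401 UMIs over all IL-1β AT2-like cells, so whether it varied less than Cd74 was not tested. The cluster highest in Cd74 was led by Cxcl5, Il4i1 and Lcn2. In the control, the 84 cells of the cycling cluster held 4767 CPM of Cd74 and 10.2 CPM of Ciita, and the 830 other AT2-like cells of the large cluster 5680 and 18.2 CPM. The unnamed IL-1β cluster led by Slc26a4 and Cd14 (550 cells) held 10172 CPM of Cd74, 1801 of H2-Ab1 and 27.8 of Ciita, each above the AT2-like cells of its library, by ratios of 1.32 (1.31 to 1.33), 1.34 (1.31 to 1.38) and 1.27 (1.05 to 1.52). The 5 control cells of that cluster held 10216 CPM of Cd74 (9528 to 10942). When the cluster was joined to the AT2-like cells, 0 of 7 members passed a ratio of 2 there (6.84% of all genes). The ratios themselves depended on it: 6 of the 7 left the counting interval of the ratio without the cluster, and 1 stayed within. An unnamed control cluster of 63 cells led by Scgb1a1, a gene of airway club cells, held 4148 CPM of Cd74 and 430 of H2-Ab1, below control AT2-like cells.

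Markers of leukocytes were sparse in the classes compared. Of 16 markers, between 4 and 11 had a UMI in a class of a library, their summed level was 9.46 to 32.8 CPM, and Cd3e and Flt3 were at 0 throughout. Ptprc (CD45), which marks all leukocytes, had 2 and 5 UMIs in control and IL-1β AT2-like cells and none in AT1-like or DATP-like cells. Most of the leukocyte UMIs of AT2-like cells were of Cd79b, with 239 in the control and 267 with IL-1β. A cluster of 4 control cells led by macrophage genes such as C1qb and Mrc1 reached 4692 CPM of the leukocyte list but 190 CPM of Cd74, on 11 UMIs. Without the 248 control and 268 IL-1β AT2-like cells that held any UMI of the list, 0 of 7 members passed a ratio of 2 in AT2-like cells (5.62% of all genes). Without the 88 and 95 such AT1-like cells 1 of the 6 members with enough UMIs passed (3.87%), H2-Eb1 with a log2 ratio of 1.02. Without the 153 and 76 such stromal-like cells 4 of 6 passed (3.91%).

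Beyond the members, the genes of the pathway were read from lists of 54 symbols, 53 of them counted. Of the other class II chains, 2 of the 4 counted had enough UMIs in AT2-like cells and both passed the ratio, which 5.78% of all genes did. H2-DMb2, a near copy of H2-DMb1, gave 13.5 CPM in control AT2-like cells (11.6 to 15.5) and 73.9 CPM in IL-1β AT2-like cells (70.0 to 78.0), a ratio of 5.49 (4.71 to 6.43), beside 1.11 for H2-DMb1. In AT1-like cells it gave 10.2 and 40.2 CPM (3.92, 2.77 to 5.68). H2-DMb2 UMIs per H2-DMb1 UMI went from 0.0674 to 0.332 in AT2-like cells. Of the 98-base windows in the last 500 bases of H2-DMb1, 44 of 403 (10.9%) also occur in H2-DMb2, so reads from these stretches cannot be assigned. Both values are uncertain for this reason, and the share for the last bases of H2-DMb2 was not computed. H2-Oa, the alpha chain of the H2-DM inhibitor, had 4 UMIs in control AT2-like cells (0.288 CPM) and 192 with IL-1β (10.5 CPM, 9.06 to 12.1), a ratio of 36.4 (14.0 to 135). Its partner H2-Ob had 0 UMIs in control AT2-like cells, which allows up to 0.216 CPM, and 1 UMI with IL-1β.

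**Figure D5:**
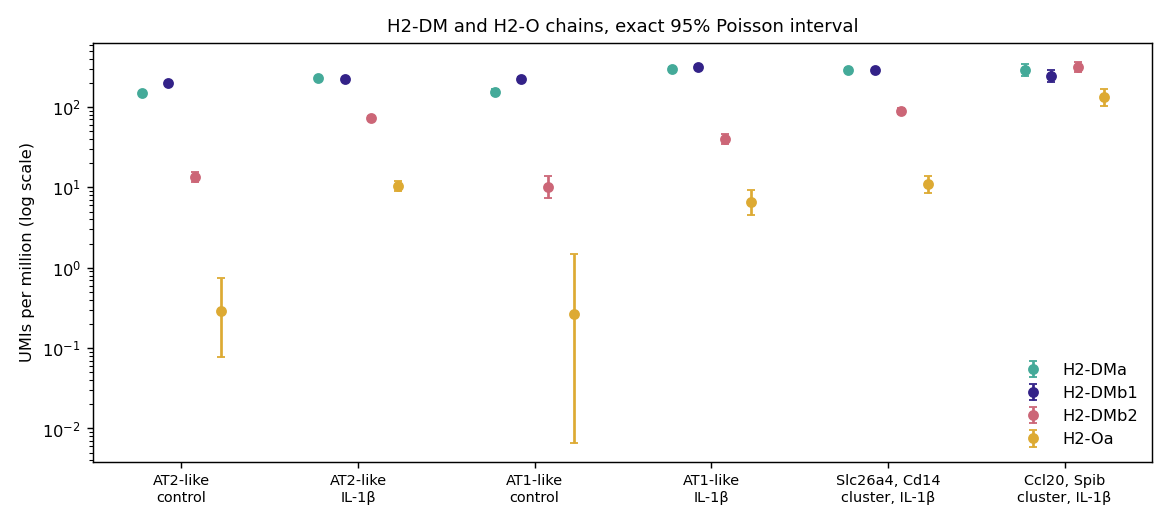
CPM (log axis) of the H2-DM chains H2-DMa, H2-DMb1 and H2-DMb2 and the H2-O chain H2-Oa, with exact 95% Poisson intervals, in AT2-like and AT1-like cells of both libraries and in 2 unnamed clusters of the IL-1β library. H2-DMa and H2-DMb1 stay between 149 and 314, whereas H2-DMb2 reaches 315 and H2-Oa 132 in the cluster led by Ccl20 and Spib.

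Among the factors bound to class II promoters, 1 of 7 passed the ratio in AT2-like cells, beside 5.78% of all genes. This was Rfxank, a subunit of the RFX complex, at 4.54 and 9.94 CPM (2.19, 1.64 to 2.97), whereas Rfx5 was at 11.1 and 12.9 CPM (1.16, 0.945 to 1.43). Rfxap, the third RFX subunit, was lower with IL-1β at 20.2 and 15.1 CPM (0.745, 0.629 to 0.883), as was Creb1 at 26.4 and 22.8 CPM (0.864, 0.749 to 0.997). In AT1-like cells 1 of 7 passed (3.81% of all genes), Rfx5, at 13.4 and 28.7 CPM (2.14, 1.55 to 3.01). In stromal-like cells 5 of the 6 with enough UMIs had an interval below 1, as did 55.6% of all genes there, and their median log2 ratio was -0.53 beside -0.32 for all genes.

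Of 11 endosomal proteases and processing genes, 9 had enough UMIs in AT2-like cells, and their ratios ran both ways. Intervals lay above 1 for 6 of the 9 (32.3% of all genes) and below 1 for 2 (25.1%). Ctsl, cathepsin L, which cuts the invariant chain in thymic epithelium, was at 91.3 and 197 CPM (2.15, 2.02 to 2.30) and Ctsh, a cathepsin abundant in AT2 cells, at 519 and 989 CPM (1.91, 1.85 to 1.96). Ifi30, the lysosomal thiol reductase GILT, was lower at 147 and 82.2 CPM (0.560, 0.524 to 0.599), as was the asparaginyl endopeptidase Lgmn at 83.0 and 62.3 CPM (0.751, 0.691 to 0.815). Ctss, the protease that makes the last cuts of the invariant chain in most antigen-presenting cells, had 1 UMI in each library's AT2-like cells. Ctsc gave the largest ratio of this list in AT1-like cells, named here after its value was seen, at 227 and 830 CPM (3.66, 3.40 to 3.94).

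Genes of trafficking and turnover were led by Cd83, which protects surface class II from ubiquitination, at 6.19 and 40.6 CPM in AT2-like cells (6.55, 5.24 to 8.29). Cd63, a tetraspanin of late endosomes, was at 702 and 1130 CPM (1.61, 1.57 to 1.65). March8, a ubiquitin ligase of the family that removes class II from the surface, was at 39.0 and 29.4 CPM (0.756, 0.670 to 0.853). The costimulation and checkpoint ligands were sparse, and 0 of 7 had 100 UMIs in AT2-like, DATP-like or AT1-like cells. Cd86 had no UMI in AT2-like cells of either library, which allows up to 0.216 and 0.164 CPM, and Cd80 had 5 and 6 UMIs.

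Interferon-gamma, the classical inducer of CIITA, was not detected. Ifng had no UMI in any of the 4 classes, which allows up to 0.216 CPM in control and 0.164 CPM in IL-1β AT2-like cells. Of the 10 genes of its signalling, 7 had enough UMIs in AT2-like cells. Both receptor chains were higher with IL-1β, Ifngr2 at 45.6 and 94.1 CPM (2.06, 1.88 to 2.27) and Ifngr1 at 26.9 and 38.6 CPM (1.43, 1.26 to 1.63). Jak2, a kinase of the receptor, was at 38.9 and 38.4 CPM (0.986, 0.880 to 1.11).

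MHC class I was read for comparison. Of 9 listed genes 8 had enough UMIs in AT2-like cells, where 7 had an interval above 1 (32.3% of all genes) and 1 passed the ratio (5.78%). In DATP-like cells 3 of 5 had an interval above 1, in AT1-like cells 8 of 8, and in stromal-like cells 3 of 8, against 18.6%, 21.1% and 12.2% of all genes. In stromal-like cells 2 of 8 had an interval below 1, against 55.6% of all genes. Psmb9 and Psmb8, subunits of the immunoproteasome, were at 27.6 and 62.0 CPM (2.25, 2.00 to 2.53) and at 95.9 and 188 CPM (1.96, 1.84 to 2.09). Tapbp, which loads peptide on class I, was at 186 and 181 CPM (0.974, 0.925 to 1.03). The median log2 ratio of the 8 class I genes in AT2-like cells was 0.52, beside 0.47 for the 7 class II members.

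Levels over clusters were set beside those of the class II chains to find the genes most like them. Over 18 groups of at least 20 cells of 1 cluster and library, the profile was the mean standardized log2(CPM + 1) of Cd74, H2-Aa, H2-Ab1 and H2-Eb1. Other genes were ranked if they had at least 100 UMIs, without mitochondrial, ribosomal protein, Gm-numbered and Rik genes. The 5 highest Pearson coefficients among those ranked were those of Cblc (0.98), Hpn (0.97), Slco2a1 (0.97), Sftpd (0.97) and Stxbp2 (0.97). Those of the members outside the profile were 0.99 for H2-DMa, 0.98 for H2-DMb1 and 0.92 for Ciita. These 18 points share 2 libraries and separate epithelial from stromal clusters. Over the 12 epithelial groups alone the 5 were Zmynd15, Pde6d, Wbp1l, H2-Eb2 and H2-DMb2, with coefficients of 0.92 to 0.95. Of these, Zmynd15 and H2-Eb2 lay near the floor, at 0 to 7.34 and 0 to 7.50 CPM over these groups, so their coefficients rest on few UMIs.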

How the data were processed

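One control and 1 IL-1β library of AT2 organoids were measured by droplet-based 3′ scRNA-seq. The authors aligned reads to GRCm38 with Cell Ranger and deposited raw UMI counts of 27998 genes in 5167 barcodes. Cells within 500 to 7000 detected genes and above 2000 UMIs entered the analysis. The study's doublet rule, rebuilt here, marked 3 of 5142 cells (0.0583%). Being under 0.5%, it was not taken to have worked, and doublets are likely still present. Clustering used scanpy 1.11.5 (2000 variable genes, 50 components, 15 neighbors) and leidenalg 0.10.2 at resolution 1 without 60 listed genes, first to set stromal clusters apart. Epithelial clusters were named for the marker list with the largest mean log2 fold, a rule written once the clusters had been seen. Names were withheld where fewer than 3 markers were raised, where markers of another class led the top 10 genes, or where a cluster scored as cycling without a cycling marker in the lead.

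Counts were summed per class and library, with exact 95% Poisson, Clopper-Pearson or ratio intervals from scipy 1.17.1. These cover counting error only. Genes with at least 100 UMIs over both libraries of a class were called at a ratio of 2. An observed 0 allows up to 3 counts. With 1 library per condition no test was possible. Simulated Poisson counts of the 10106 genes of AT2-like cells were made with 200 genes changed at least 2-fold up or down. Of these, 100% had an interval on the right side of 1, against 98% in DATP-like and 99% in AT1-like cells simulated alike. Intervals held the true ratio for 95.3% of genes in AT2-like cells. Such counts vary by counting error alone, so this checks the calculation only, and changes below 2-fold were not simulated. The members, lists and markers were chosen with earlier results of these data known. Listed genes were named by rule, the 2 highest and 2 lowest of each list in AT2-like cells by the interval limit nearest 1. H2-Ob, Ctss, Ctsc, Cd80, Cd86, Ifng and Rfx5 in AT1-like cells were named for their role or after their values were seen. Alternatives varied the cell filter, doublets, clustering, naming, scaling, fold and count minimum. H2-Ea-ps and the promoters of H2-Ab1 and Ciita were not analysed here. Some items are not reported here.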

Additional observations from a re-analysis of the deposited data

Results flagged for a closer look

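A cluster of 35 IL-1β cells led by Ccl20, Pglyrp1 and Spib stood in no named class and held 3 genes of the pathway at levels above those of every named class. It gave 1137 CPM of H2-Eb1 (exact Poisson 95% interval 1049 to 1230.1), 315 CPM of H2-DMb2 (270.0 to 366) and 132 CPM of H2-Oa (103 to 166). AT2-like cells of the same library gave 716, 73.9 and 10.5 CPM, and its AT1-like cells gave 966 CPM of H2-Eb1. Control AT2-like cells gave 447, 13.5 and 0.288 CPM. Its H2-DMb2 UMIs outnumbered those of H2-DMb1 by 1.29 (1.03 to 1.63). Sftpc was at 10.5% of the AT2-like level of its library and Lamp3 at 123%, 2 of 16 leukocyte markers had a UMI, with 25 UMIs and 45.8 CPM in all, above the 9.46 to 32.8 CPM of the 4 classes compared, and Ptprc was at 0. The part of doublets or of another cell type in these levels was not tested. The larger unnamed IL-1β cluster led by Slc26a4 and Cd14 held 89.8 CPM of H2-DMb2 (82.3 to 97.8), above the pooled level of each named class but below the 106 CPM of the AT2-like cluster led by Cxcl5.

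The ratio between libraries ran in opposite directions in different classes for 5 named genes, with intervals on either side of 1, and the difference itself was not tested since each class has 1 library per condition. Ifi30 was higher with IL-1β in stromal-like cells (1.501) and lower in AT2-like cells (0.560), a difference of 1.42 in log2 ratio. Lgmn did the same (1.70 and 0.751, difference 1.18). Ifngr1 was higher in DATP-like cells (3.23, 1.78 to 6.42, on 12 control UMIs) and lower in stromal-like cells (0.592, 0.539 to 0.651), a difference of 2.45. Rfx5 was higher in AT1-like cells (2.14) and lower in stromal-like cells (0.478), a difference of 2.16. Psmb8 was higher in DATP-like cells (3.65, 2.36 to 5.94, on 22 control UMIs) and lower in stromal-like cells (0.816, 0.714 to 0.932), a difference of 2.16. Its stromal ratio was 1.02 once divided by the median ratio of all stromal genes, and those of Ifngr1 and Rfx5 were 0.741 and 0.598. The ratios of these 5 genes were not recomputed under the alternatives.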

How the results depend on the processing

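All 26 ratios of IL-1β to control lay above 1, and the log2 ratio of AT2-like cells stayed between 0.04 and 0.90 over all members and alternatives. In DATP-like cells the log2 ratio of Cd74 ran from 0.07 to 2.15 and that of H2-Eb1 from 0.18 to 2.75. Of 323 recomputed single ratios 202 moved by less than their interval and 120 by more, and 1 turned: H2-Aa in DATP-like cells, at a log2 ratio of -0.083 when each library was clustered alone. The count of members past the fold depended on the cells taken. At a fold of 1.5 it was 3 in AT2-like (13.0% of all genes), 4 in DATP-like (15.8%), 6 in AT1-like (9.51%) and 4 in stromal-like cells (6.30%). At a fold of 4 it was 0 in DATP-like (3.18%) and 0 in stromal-like cells (1.25%). In DATP-like cells (2 of 6) it was 5 of 7 with all barcodes (5.93% of all genes) and 7 of 7 at resolution 2.0 (15.2%). It was 1 of 6 there with another random seed (6.89%) and 0 of 6 with separate clustering (7.97%). In AT1-like cells (0 of 7) it was 2 without doublet removal (4.08% of all genes), at resolution 2.0 (3.94%) and with separate clustering (3.99%). It was 4 there without the highest 5% of doublet scores (4.65%) and 1 without cells holding a leukocyte marker (3.87%). In stromal-like cells (1 of 6) it was 4 with median-of-ratios scaling, with a mean over cells, without the highest 5% of doublet scores and without cells holding a leukocyte marker. No DATP-like control cells were left without doublet removal, without the highest doublet scores, at resolution 0.5 or with Louvain clustering, so those gave no value. The share of cells with a UMI was higher with IL-1β for 6 of 7 members, and for 3 without thinning. Of the 5 most similar genes 2 recurred with Spearman's rho and 0 over epithelial clusters alone. Depth limits Ciita most. No paired analysis was possible because each condition has 1 library. The causes of these changes were not tested.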

Other observations

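Other cells outside the comparisons carried the pathway at lower levels. The 9 airway-like cells of the IL-1β library held 2689 CPM of Cd74 (exact Poisson 95% interval 2478 to 2914), 369 of H2-Aa (294 to 458) and 383 of H2-Ab1 (306 to 473), and no UMI of Ciita, which allows up to 13.5 CPM. The control cluster of 63 cells led by Scgb1a1, Cd24a and Cyp2f2 held the members at 43.9% to 74.2% of the level of control AT2-like cells, while its AT2 genes lay at 79.4% to 118%. Among stromal-like clusters of at least 20 cells, Cd74 ran from 218 to 636 CPM in the control and from 389 to 910 CPM with IL-1β.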
